A study of Mus musculus with 3 samples.

Results

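The 2 arms of the miR-22 hairpin, mmu-miR-22-3p and mmu-miR-22-5p (miR-22-3p and miR-22-5p), were followed through 3 small RNA libraries of mouse liver. They were found by name in the count files, as 2 of 1908 listed mature microRNAs, and both had reads in every library. The livers came from male C57BL/6J mice of 8 to 10 weeks, an inbred laboratory strain, and each group was represented by 1 library. Sham mice had a laparotomy without vessel occlusion and were kept for 90 min. In the warm ischemia (WI) group, a clamp closed the vessels and bile duct of the left and median lobes for 90 min. In the ischemia-reperfusion (IR) group, the same clamping for 90 min was followed by 120 min of restored flow. All mice were fasted and anesthetized with chloral hydrate. IR livers were taken later after surgery than Sham livers, so a change after reperfusion and a change with time since surgery cannot be told apart. The methods do not state whether RNA of several mice was pooled, and no difference between libraries has a replicate check.

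A microRNA hairpin is cut by Drosha and Dicer into a short duplex, from which usually one arm is loaded into an Argonaute protein and the other is degraded. The loaded arm represses messenger RNAs that pair with its seed, bases 2 to 8. MiR-22 is a conserved microRNA processed from an exon of a long non-coding host transcript. It is widely expressed and abundant in liver and heart, and known targets of its 3p arm include the messenger RNAs of Hdac4, a histone deacetylase, and Sirt1, a deacetylase that depends on NAD.

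The mature arms are shown because the seed sets which messenger RNAs each arm can pair with. They were taken from RefSeq (GRCm38.p6), and capitals mark the seed. The sequence of miR-3966, a microRNA from chromosome 10, follows because it was the closest to miR-22-3p among the other RefSeq mature microRNAs, and its capitals mark the 7 letters that form the seed of miR-22-3p.
miR-22-3p: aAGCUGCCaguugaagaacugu
miR-22-5p: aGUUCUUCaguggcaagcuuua
miR-3966: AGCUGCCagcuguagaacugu

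None of the other names among 1679 RefSeq mature microRNAs carried either seed at bases 2 to 8, so each arm stood alone in its seed group. The letters of the 3p seed occurred somewhere in 4 other mature microRNAs, and those of the 5p seed also in 4. MiR-3966 differed from miR-22-3p by 3 single-base changes (substitution, insertion or deletion). It had 1 read in each library, against 723065 or more for miR-22-3p. The nearest sequence to miR-22-5p was 8 changes away.

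Both arms are 22 bases long, with a GC content of 45.5% in the 3p arm and 40.9% in the 5p arm. The hairpin of 95 bases lies on the plus strand of chromosome 11 (mm9, chr11:75277218-75277312). By matching to that genome, the 5p arm lies at chr11:75277236-75277257 and the 3p arm at chr11:75277274-75277295. Each arm had 1 exact match in the genome and 0 further matches with 1 mismatch, on either strand, so its full-length reads had a single place to align. In the GENCODE annotation of mm9 the hairpin lies within an exon of the non-coding host 2210403K04Rik (75277195 to 75277359 in one transcript), named Mir22hg in RefSeq. The same exon is used by a non-coding transcript of Tlcd2, a protein-coding gene, and no coding sequence or UTR is annotated across the hairpin. Shown whole, with the arms in capitals, the RefSeq hairpin reads as follows.
Mir22 hairpin: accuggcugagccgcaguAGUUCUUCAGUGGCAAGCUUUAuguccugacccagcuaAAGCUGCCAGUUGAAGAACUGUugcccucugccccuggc
In its predicted fold, 19 of the 22 bases of each arm were paired with the other arm. The first 4 bases of both arms were paired, with 2 G-C pairs at the start of the 3p arm and 1 at the start of the 5p arm.

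The 3p arm was the second most abundant microRNA in every library, after the hepatocyte microRNA miR-192-5p. Reads of miR-22-3p numbered 723065 in Sham, 930070 after WI and 775895 after IR. The libraries held 3844133, 5064014 and 3784539 microRNA reads in the same order. The share of miR-22-3p was thus 18.81% in Sham (95% Wilson interval 18.77 to 18.85), 18.37% after WI (18.33 to 18.40) and 20.50% after IR (20.46 to 20.54). Its share was lowest in WI and highest in IR, and the 3 intervals did not overlap. From Sham to WI the share changed by -0.443 percentage points (95% interval -0.495 to -0.392), and from WI to IR by 2.14 points (2.08 to 2.19). These intervals cover counting error only, since PCR copies were counted as separate reads and the spread between animals was not measured.

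The 5p arm was a rare product beside it, with 270 reads in Sham (exact 95% Poisson interval 239 to 304), 359 after WI (323 to 398) and 318 after IR (284 to 355). Its share of the library was 0.00702% in Sham (95% Wilson interval 0.00623 to 0.00791), 0.00709% after WI (0.00639 to 0.00786) and 0.00840% after IR (0.00753 to 0.00938). The 3 intervals overlapped, but the difference in share had a counting interval above 0 from WI to IR (0.000134 to 0.00249 percentage points) and from Sham to IR (0.000132 to 0.00263). It ranked 146 in Sham, 143 after WI and 142 after IR among the microRNAs with reads, of which there were 653, 682 and 679. It was still deeper than most minor arms. Over 96 hairpins with at least 30 reads on each arm, the median of the lower arm was 48 reads in Sham, and 77 of the other 95 hairpins had a lower arm with fewer reads than miR-22-5p.

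To compare libraries, reads were scaled by the trimmed mean of M-values (TMM) and expressed per 1000000 (CPM). The level of miR-22-3p was 182590 CPM in Sham, 191175 after WI and 202899 after IR. The level of miR-22-5p was 68.2 CPM in Sham (95% counting interval 60.3 to 76.8), 73.8 after WI (66.4 to 81.8) and 83.2 after IR (74.3 to 92.8). On this scale both arms were lowest in Sham and highest in IR. The intervals of the 3p arm did not overlap, and those of the 5p arm overlapped between every pair of libraries, which by itself does not decide whether 2 libraries differ. Differences between libraries are given with their own intervals.

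**Figure D1:**
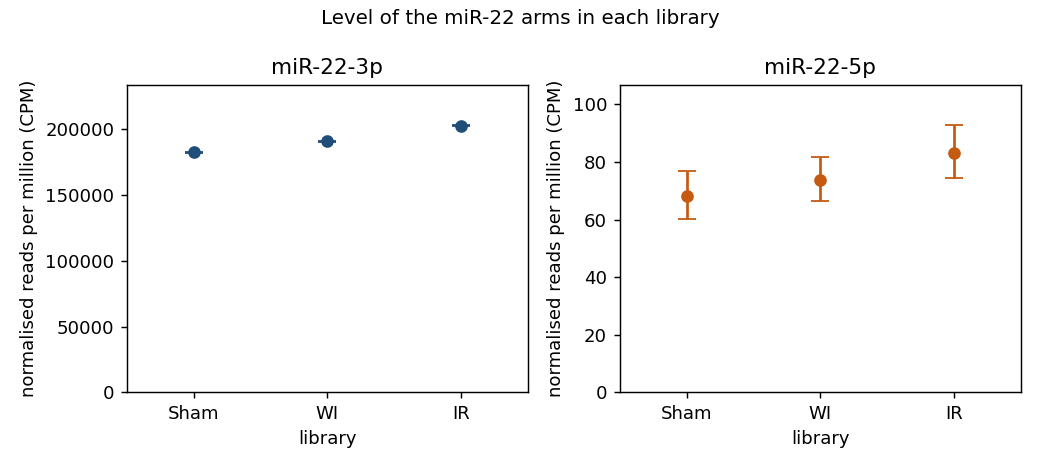
Level of miR-22-3p (left) and miR-22-5p (right) in the Sham, WI and IR libraries, in TMM-normalised reads per 1000000 on linear axes from 0, with 95% counting intervals. MiR-22-3p went from 182590 to 202899 CPM with intervals too narrow to see, and miR-22-5p from 68.2 to 83.2 CPM with intervals that overlap.

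Pairwise comparisons asked whether either arm differed after ischemia alone, with the return of blood, or over both stages. The criteria of the methods were used for a call, which needs more than a 1.5-fold difference together with a p under 0.01 in Fisher's exact test on the reads. The test compares 2 libraries and not 2 conditions. For the total of a sample the methods name its mapped reads. Here TMM was applied to the sum of microRNA reads instead, and genome-aligned totals without a TMM factor were tried as an alternative. Neither arm was called in any comparison. Of all microRNAs tested, 15 of 782 (1.92%) were called between WI and Sham, 73 of 789 (9.25%) between IR and WI, and 55 of 774 (7.11%) between IR and Sham.

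For miR-22-3p, the level in WI was 1.05 times that in Sham, a log2 change of 0.066 (SE 0.0023, Fisher's exact p = 4.10e-232). The level in IR was 1.06 times that in WI, a log2 change of 0.086 (SE 0.0022). The level in IR was 1.11 times that in Sham, a log2 change of 0.15 (SE 0.0024), or 20309 CPM more. In the last 2 comparisons the p was too small for the calculation to represent. These differences were far larger than counting error and far below the fold threshold of 1.5. Among the 188 microRNAs with at least 100 reads in both libraries, 51 had a larger log2 change from Sham to IR than miR-22-3p.

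For miR-22-5p, the log2 change was 0.11 in WI against Sham (SE 0.12, Fisher's exact p = 0.336) and 0.17 in IR against WI (SE 0.11, Fisher's exact p = 0.122). In IR against Sham it was 0.29 (SE 0.12), a fold change of 1.22 with a 95% counting interval of 1.04 to 1.43. Its Fisher's exact p of 0.0167 missed the threshold, and the Benjamini-Hochberg value over all microRNAs tested was 0.0966. The upper bound of that interval lies below 1.5, so at this depth counting error alone did not hide a change of the required size between these libraries.

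The direction of such small differences depended on the scaling. With library totals miR-22-3p was lower in WI than in Sham, with a log2 change of -0.034, as its share was. The change from Sham to WI was also negative with totals without miR-22 itself (-0.042) and without the 10 most abundant microRNAs (-0.016). With totals of genome-aligned reads it was 0.22 from Sham to WI, -0.24 from WI to IR and -0.016 from Sham to IR. By the paper's read statistics, a smaller part of the cleaned reads aligned to the genome in IR than in Sham or WI. That part does not enter this scaling, which divides by the aligned reads themselves. The scaling instead shifts with the share of aligned reads that were counted as microRNAs. The 5p arm turned negative only from WI to IR and only under genome-aligned totals (-0.15), among 6 scalings tried.

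Genome-aligned totals moved the median log2 change of all tested microRNAs to 0.20 from Sham to WI, -0.33 from WI to IR and -0.11 from Sham to IR. Relative to that median, miR-22-3p lay at 0.022, 0.095 and 0.091 in the same order. A common factor moves every microRNA and the median alike, so this position is nearly the same under every scaling and is no further check. The median over all tested microRNAs includes many with few reads. Over those with at least 100 reads in both libraries, the median log2 change with TMM was 0.041 from Sham to WI, -0.026 from WI to IR and 0.021 from Sham to IR, beside 0.066, 0.086 and 0.15 for miR-22-3p and 0.11, 0.17 and 0.29 for miR-22-5p.

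**Figure D2:**
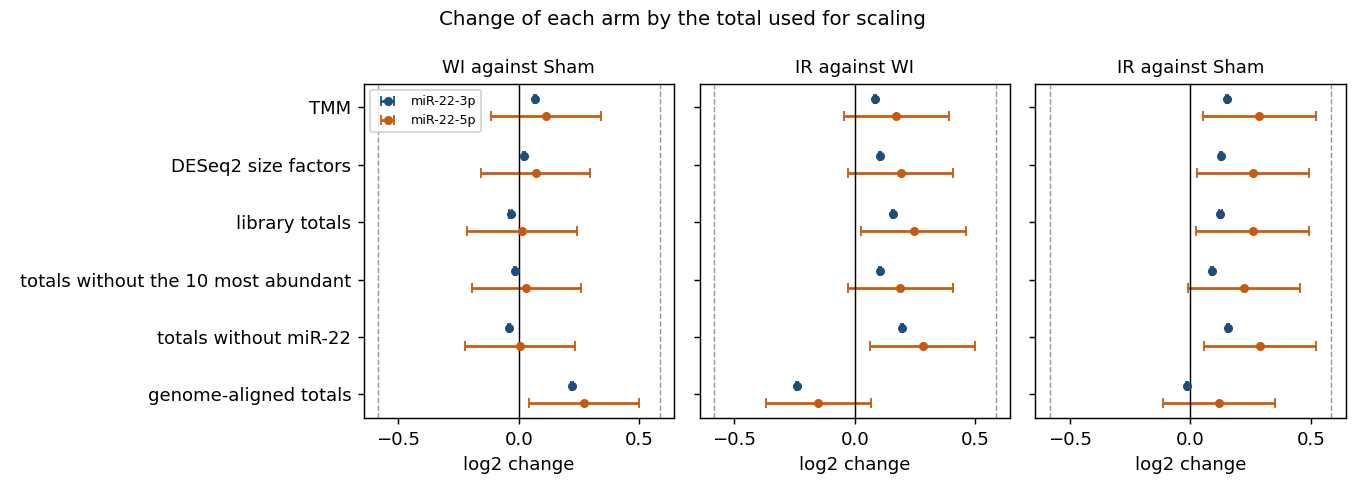
Log2 change of miR-22-3p (blue) and miR-22-5p (orange) in each comparison, by the total used for scaling, with 95% counting intervals; dashed lines mark a fold change of 1.5 in either direction. Every value lies between the dashed lines, and miR-22-3p changes side in WI against Sham (from 0.066 with TMM to -0.034 with library totals) and, with genome-aligned totals, in the other 2 comparisons.

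A ratio of 2 microRNAs in the same library needs no scaling, so miR-22-3p was also set against the 20 other microRNAs of highest share. From Sham to WI its ratio was higher against 7 and lower against 13, with a median log2 change of -0.038. Over the 50 other most abundant microRNAs this turned, with 29 higher and a median of 0.026. From WI to IR it was higher against 16 and lower against 4, with a median of 0.19. From Sham to IR the counts were again 16 and 4, with a median of 0.15.

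MiR-192-5p, the liver microRNA above it, took 25.1% of reads in Sham, 24.8% after WI and 23.9% after IR. There were 0.751 reads of miR-22-3p for each read of miR-192-5p in Sham, 0.741 after WI and 0.857 after IR. Against miR-148a-3p, the next below it and also abundant in hepatocytes, the ratio was 2.45 in Sham, 2.27 after WI and 3.23 after IR. MiR-22-3p therefore drew nearer to the first and further from the third in IR.

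The widest gain of miR-22-3p from Sham to IR was against let-7f-5p, a member of the let-7 family, with a log2 change of 0.48. The 4 microRNAs against which it was lower in IR than in Sham were miR-21a-5p, known to rise in tissue injury (-0.33), miR-30e-5p (-0.050), miR-378a-3p (-0.023) and miR-191-5p (-0.013). Against miR-122-5p, the hepatocyte microRNA, the log2 change of the ratio was -0.19 from Sham to WI and 0.21 from Sham to IR.

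**Figure D3:**
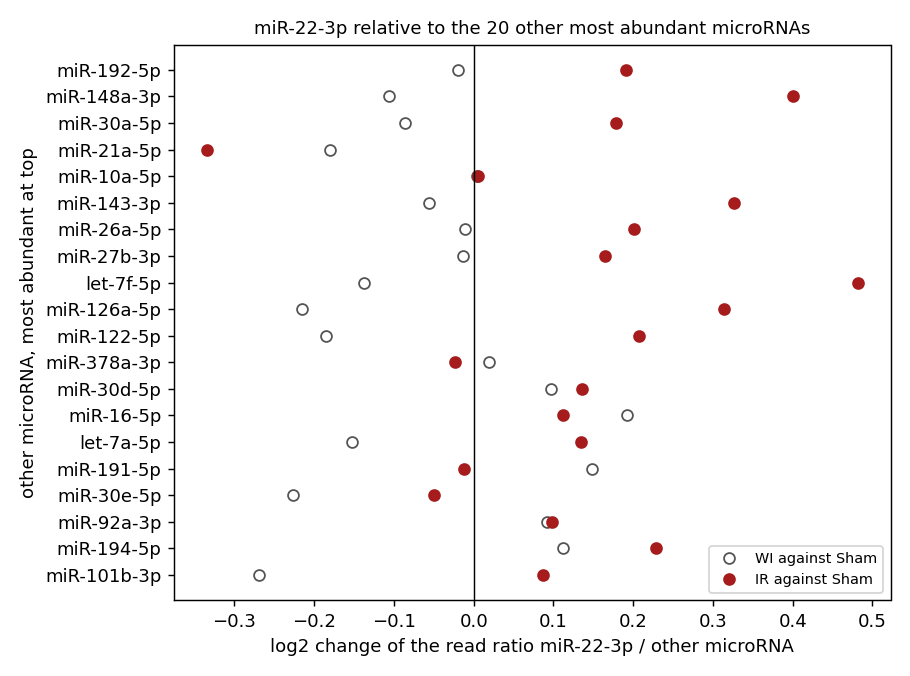
Log2 change of the read ratio of miR-22-3p to each of the 20 other most abundant microRNAs, in WI against Sham (open) and IR against Sham (red); no scaling between libraries enters. Of the 20 open points 13 lie below 0, and of the 20 red points 16 lie above it, from -0.33 for miR-21a-5p to 0.48 for let-7f-5p.

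The arms were then compared with each other. There were 2678 reads of miR-22-3p for each read of miR-22-5p in Sham (95% counting interval 2377 to 3017), 2591 after WI (2336 to 2873) and 2440 after IR (2186 to 2723). In other terms the 5p arm made up 0.0373% of the reads of both arms in Sham (95% Wilson interval 0.0331 to 0.0421), 0.0386% after WI (0.0348 to 0.0428) and 0.0410% after IR (0.0367 to 0.0457). The ratio was highest in Sham and lowest in IR, and the 3 intervals overlapped.

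The log2 change of the ratio was -0.048 in WI against Sham (95% counting interval -0.28 to 0.18, Fisher's exact p = 0.688). It was -0.087 in IR against WI (-0.30 to 0.13, Fisher's exact p = 0.440) and -0.13 in IR against Sham (-0.37 to 0.10, Fisher's exact p = 0.265). A change of the arm ratio was not detectable at this depth. The intervals bound it to a fold of 0.775 to 1.07 in IR against Sham, inside the 1.5-fold threshold in either direction.

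The arm ratio was tested in the same way for the 96 of 747 hairpin names with both arms listed that had at least 30 reads per arm over the 3 libraries. The share called was 4.17% from Sham to WI, 7.29% from WI to IR and 4.17% from Sham to IR, and miR-22 was not called in any. The median size of the log2 change over the hairpins was 0.24, 0.24 and 0.33 in that order. Changes larger in size than that of miR-22 were found in 82, 78 and 77 hairpins, many of which had fewer reads and so wider error.

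In these libraries arm use was more lopsided for miR-22 than for nearly all of these hairpins. By log2(3p/5p) it ranked 2 of 96 in every library, behind miR-143, a microRNA of smooth muscle and stromal cells, which had 8044 reads of its 3p arm for each 5p read in Sham. The rank depended on the read minimum and was 1 of 66 with at least 100 reads per arm and 3 of 119 with at least 10. Because the lower arm also had to reach the minimum, the ratio a hairpin could show was limited by the reads of its major arm. A rank this high was therefore open only to hairpins with a very abundant arm, such as miR-22. By the mean over the libraries, next below it were miR-27b, with a ratio of 678 in Sham, and miR-29a, with 787, a member of a family that targets collagen messenger RNAs. In either direction miR-22 ranked 3, since miR-192 favoured its 5p arm more strongly still, with 962981 reads of 5p and 250 of 3p in Sham. Arms were paired only where their names were otherwise identical. Hairpins whose arms carry different copy numbers in their names, such as those of miR-26a, lie outside these ranks. For comparison, the median hairpin differed between its arms by 4.16 on the log2 scale in Sham, where miR-22 differed by 11.4.

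**Figure D4:**
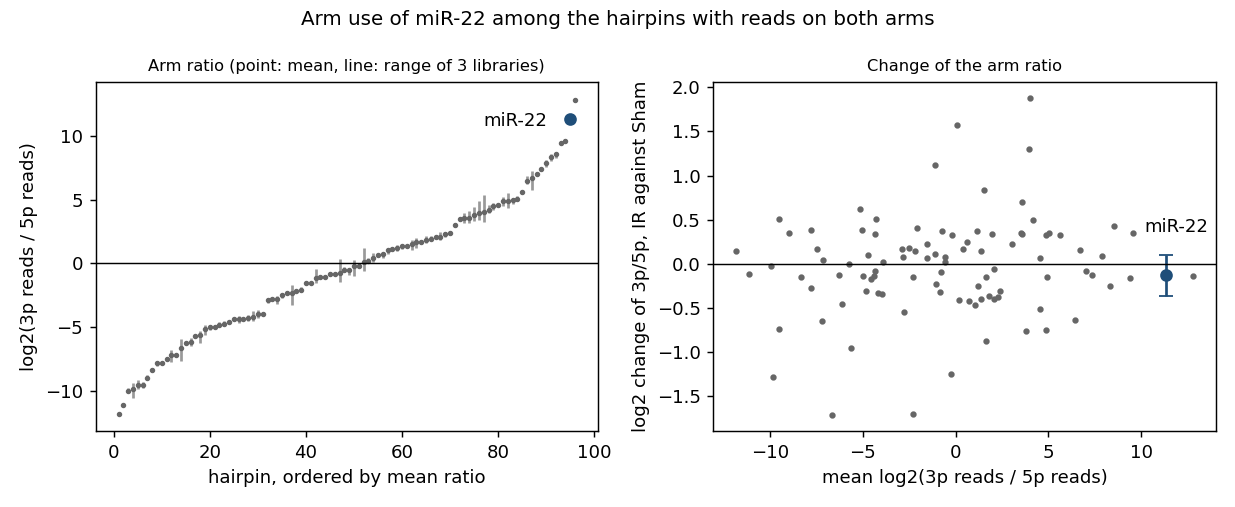
Left, log2 ratio of 3p to 5p reads for 96 hairpins, ordered by the mean over the 3 libraries (points), with lines from the lowest to the highest library; miR-22 (blue) ranks 2. Right, log2 change of that ratio in IR against Sham by the mean log2 ratio, where miR-22 lies at -0.13 with its 95% counting interval, which includes 0.

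The microRNAs whose changes were most like those of each arm were found by the distance between their pairs of log2 changes (WI against Sham and IR against Sham), over 186 other microRNAs with at least 100 reads in each library. A common scaling factor cannot alter this distance, but it rests on 3 libraries. The nearest to miR-22-3p was miR-10a-5p, a microRNA encoded in a Hox gene cluster, at a distance of 0.0061, where the median was 0.28. It had 37424 CPM in Sham, 39085 after WI and 41447 after IR. The next were miR-151-3p (0.016), miR-378a-3p, from an intron of the metabolic regulator Ppargc1b (0.030), miR-182-5p (0.035) and miR-19b-3p (0.042).

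For miR-22-5p the nearest was miR-345-5p (0.031), with 157 reads in Sham, 209 after WI and 181 after IR, followed by miR-106b-5p (0.042), miR-181a-5p (0.043), miR-1198-5p (0.047) and miR-320-3p (0.050). With so few reads in miR-22-5p this order lies within counting error. The other arm of the hairpin was 36 of 186 in the order for miR-22-3p and 13 of 186 in that for miR-22-5p, at a distance of 0.14.

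The libraries were checked for the cell types they could hold. All 5 hepatocyte microRNAs, which include both arms of miR-122, had reads in every library. They summed to 341984 CPM in Sham, 369163 after WI and 322798 after IR, and 0 of 5 were called in any comparison. Most of each sum was miR-192-5p, with 243175 CPM in Sham, 258042 after WI and 236770 after IR. Over all microRNAs tested, 1.92% were called between WI and Sham, 9.25% between IR and WI and 7.11% between IR and Sham. Among lists of other cell types, all 4 erythroid microRNAs rose from Sham to IR by the call rule, and 3 of 4 from WI to IR. Their sum went from 5055 CPM in Sham and 4781 in WI to 9020 in IR. The 5 leukocyte microRNAs summed to 3084 CPM in Sham, 3049 after WI and 2798 after IR, and 1 of 5, the myeloid miR-223-3p, rose from Sham to IR (log2 change 1.10). The other arm, miR-223-5p, was called lower in IR than in WI (-0.96), and from Sham to IR the log2 change was -0.77 for miR-223-5p, -0.32 for miR-150-5p, -0.22 for miR-142-5p and 0.11 for miR-142-3p, none of them called. The 2 endothelial microRNAs summed to 17568 to 22783 CPM and the 5 stromal ones to 35224 to 43072 CPM, both highest in WI and lowest in IR, with 0 called. The 4 muscle microRNAs summed to 6.82 CPM in Sham, 24.3 after WI and 76.1 after IR, with 1 of 4 called higher in each comparison and the other 3 at 0 in Sham. In bulk tissue, a change in the number of cells of a type and in RNA per cell cannot be told apart. The part of these shifts in the level of miR-22 was not tested.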

How the data were processed

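The deposited files held whole, unnormalised read counts for mature microRNAs, 1 library per group, with groups taken from the titles. Before deposit, the authors trimmed adaptors, filtered reads by quality and size, aligned them to mm9 with Bowtie 0.12.7 (1 mismatch), assigned RNA classes with HTSeq and obtained mature microRNA counts with miRDeep2. The submitters' processing notes list mm10, so mm9 positions follow the methods. Counts were scaled by TMM (edgeR 4.0.16, R 4.3.3) with factors of 1.03 (Sham), 0.961 (WI) and 1.01 (IR). Log2 changes were taken on log2(CPM + 0.1), with counting SE, and Fisher's exact tests (scipy 1.17.1, two-sided) covered all microRNAs with 1 or more reads in the pair. Arm ratios were tested on reads alone. Arm ratios used for ranks had 0.5 added to each arm. Without replicates no quasi-likelihood model could be fitted. Hairpins were folded with RNAfold 2.7.2. Of 1908 listed names, 1603 matched RefSeq.

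The named microRNAs were the 2 arms, those of highest share, the 5 with the most similar changes to each arm and the 3 hairpins with the nearest arm ratio. MiR-3966 was named for its sequence, and let-7f-5p, miR-30e-5p, miR-191-5p and miR-192 (as the most 5p-biased hairpin) after their values were seen. The members and lists were chosen with earlier results of these data known. The calling scripts were tested on simulated data with counting error only and changes larger than the fold threshold. Changes as small as those of miR-22 and variation between animals were not simulated. Alternatives changed the scaling (DESeq2 1.42.0 among them), pseudocount, filters, thresholds, depth and assumed variation between animals.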

Additional observations from a re-analysis of the deposited data

How the results depend on the processing

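Neither arm of miR-22 was called under any of 15 alternatives for its level, nor the arm ratio under any of 6. With 1 library per group, neither a paired analysis nor leaving out a library was possible. The level changes took a new value under 9 of the 15. The other 6 altered only the threshold or test and could not call values below the fold threshold. Of the 54 recomputed values 48 kept their direction. They include those with another or no pseudocount, which cannot turn a direction. The 6 that turned were miR-22-3p in WI against Sham with library totals (-0.034), without the 10 most abundant microRNAs (-0.016) and without miR-22 (-0.042), and, with genome-aligned totals, miR-22-3p in IR against WI (-0.24) and IR against Sham (-0.016) and miR-22-5p in IR against WI (-0.15). The arm-ratio change took a new value only after thinning to equal depth, where it was -0.098 from Sham to WI, -0.024 from WI to IR and -0.12 from Sham to IR. The other 5 alternatives left its value below the fold threshold, so they could not have called it.

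The number of microRNAs called in WI against Sham became 25 with genome-aligned totals, 33 at p under 0.05, 9 at a fold above 2, and 4 and 1 by the exact test of edgeR when animals were assumed to vary by a coefficient of 0.2 and 0.4. In IR against WI it became 111 with genome-aligned totals, and 33 and 6 with those variations. In IR against Sham it became 35 at a fold above 2, and 24 and 10. The share of calls that were higher in WI than in Sham was 73.3% with TMM, 41.2% with library totals and 92.0% with genome-aligned totals. Higher in IR than in WI were 67.1% with TMM and 34.2% with genome-aligned totals, and higher in IR than in Sham 80.0% and 55.6%. Hairpins with a called arm ratio in WI against Sham numbered 2 at a fold above 2. With an assumed coefficient of variation of 0.2 they numbered 1 in each comparison, and in IR against Sham 9 at p under 0.05.

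Without miR-192-5p in the total, miR-22-3p took 25.1% of reads in Sham, 24.4% after WI and 26.9% after IR, and miR-22-5p 0.00937%, 0.00943% and 0.0110%. Of genome-aligned reads miR-22-3p took 6.72%, 7.84% and 6.65%, so its order changed to highest in WI, and miR-22-5p 0.00251%, 0.00303% and 0.00272%. Against the other 10 most abundant microRNAs in place of 20, the ratio of miR-22-3p was higher in WI than in Sham for 10% of them, and against the other 50 it was higher for 58% (29 of 50, median log2 change 0.026), so the direction of this comparison rests on how many are taken. A minimum of 1000 reads per library kept the 5 microRNAs most similar to miR-22-3p and 1 of 5 for miR-22-5p. Their reads alone fixed this. The 270 to 359 reads of miR-22-5p limit every statement on the arm ratio.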
